A study of Mus musculus with 6 samples.

Results

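δ-chain clonotypes that joined *Trdv1* or *Trdv5* to *Trdd2* and *Trdj1* with at least 1 inserted nucleotide, and that carried arginine, arginine and aspartate (RRD), the motif of 1 *Trdd2* reading frame, in the CDR3, numbered 271. They belonged to 1936 *Trdv1* and *Trdv5* clonotypes found over 6 samples, of which 1588 had such an N-added *Trdd2* join. A clonotype is a CDR3 nucleotide sequence with its V and J segments, and the CDR3 is the part of the chain that spans the V(D)J junction. Members had to contain RRD in the CDR3 protein sequence and neither of the motifs of the other *Trdd2* frames, GGI and EGY. The rule uses no read count and no IL-17 label. The members comprised 131 *Trdv1* and 140 *Trdv5* clonotypes and held 78100 of 691707 *Trdv1* and *Trdv5* reads (11.3%).

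All samples were γδ T cells of peripheral lymph nodes (pLNs) from Vγ4-/-/Vγ6-/- mice (strain B6.Cg-Tcrgtm1lku in the labels), so IL-17pos and IL-17neg cells share the loss of Vγ4 and Vγ6 TCRs. pLN cells were stimulated with PMA and, per the study's methods, ionomycin, and were sorted by an IL-17 secretion assay into 3 IL-17pos and 3 IL-17neg samples. Each group has a sample 13-01, 20-01 and 27-01. The study calls the mice adult, and the sources used here give neither their exact age, nor the meaning of the numbers, nor the number of sorted cells. The study describes the remaining γδ T cells as mostly Vγ1 T cells, but the sort lists no Vγ antibody and the tables hold no γ chain. The samples yielded 95800 to 142163 reads of *Trdv1* and *Trdv5*. Nothing states that the samples of a group came from separate animals, so p-values measure only the spread between these samples, which may be technical. Some samples share clonotypes at 1 to 4 reads that are abundant elsewhere, and results that leaving out such traces moved by over 1.5 times are given both ways.

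The δ chain is assembled from V, D and J segments by RAG-mediated recombination. Exonucleases trim the segment ends, hairpin opening can leave palindromic (P) nucleotides, and terminal deoxynucleotidyl transferase adds N nucleotides that no template encodes. D segments can be read in every frame, and joins may contain more than one D segment, so the δ chain is among the most variable antigen receptor chains. CDR3δ lies at the centre of the antigen-binding face of the γδ TCR.

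The segments that build the members are shown first, because the remaining sequences are read against them. They lie on chromosome 14 of GRCm38.p6 and were taken from RefSeq. The CDR3 part of *Trdv1* is the exonic end of the V segment at chr14:53882205-53882217 (plus strand, within chr14:53881612-53882217). The CDR3 part of *Trdv5* is at chr14:54148662-54148676 on the minus strand, within chr14:54148662-54149201. *Trdd1* lies at chr14:54113468-54113476, *Trdd2* at chr14:54122226-54122241 and *Trdj1* at chr14:54123138-54123188, all on the plus strand, and *Trdj1* is shown up to base 54123157, where the CDR3 ends.
*Trdv1*: tgtggagggaaag
*Trdv5*: tgtgcctcggggtat
*Trdd1*: atggcatat
*Trdd2*: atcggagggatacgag
*Trdj1*: ctaccgacaaactcgtcttt

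Read from base 3 of *Trdd2* the codons are Arg, Arg, Asp and Thr. Reading from base 1 gives the GGI frame and from base 2 the EGY frame. The member with the most reads in each sample shows how different the RRD joins were. Capitals mark the unbroken run of germline *Trdd2* bases inside the deposited D borders, and all sequences run 5′ to 3′.
IL-17neg 13-01, *Trdv5*: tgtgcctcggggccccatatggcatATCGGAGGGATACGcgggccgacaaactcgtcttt
IL-17neg 20-01, *Trdv5*: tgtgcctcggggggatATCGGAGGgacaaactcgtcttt
IL-17neg 27-01, *Trdv5*: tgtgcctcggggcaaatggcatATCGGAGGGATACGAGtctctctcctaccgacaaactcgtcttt
IL-17pos 13-01, *Trdv1*: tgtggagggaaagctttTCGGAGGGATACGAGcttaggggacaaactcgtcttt
IL-17pos 20-01, *Trdv1*: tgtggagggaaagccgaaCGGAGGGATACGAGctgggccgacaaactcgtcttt
IL-17pos 27-01, *Trdv5*: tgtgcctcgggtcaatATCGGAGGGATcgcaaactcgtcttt

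Each of these 6 dominated in a single sample. The leading member of IL-17neg 13-01 had 2042 reads there, 1 in IL-17pos 20-01 and 0 in the other samples. With 11 nucleotides inserted between V and D and 4 between D and J, it encoded 20 residues. The leading member of IL-17neg 20-01 had 5868 reads there, 4 in IL-17neg 27-01, 3 in IL-17pos 20-01 and 0 elsewhere. Its single inserted nucleotide stands between V and D, the deposited borders give it 8 bases of *Trdd2*, and it encodes 13 residues. By these borders the aspartate codon gac lies wholly in *Trdj1*, although its first 2 bases also match the next bases of *Trdd2*. The leading member of IL-17neg 27-01 had 713 reads there and 0 in every other sample. It keeps all 16 bases of *Trdd2* in a CDR3 of 22 residues, with 8 V-D and 4 D-J insertions. The leading member of IL-17pos 13-01 had 2736 reads there, 4 in IL-17neg 13-01 and 0 elsewhere. It has no V-D insertion by the deposited borders and 5 D-J insertions. The leading member of IL-17pos 20-01 had 1709 reads there, 2 in IL-17neg 20-01 and 0 elsewhere. The leading member of IL-17pos 27-01 had 1354 reads there, 1 in IL-17neg 20-01 and 0 elsewhere, in a CDR3 of 14 residues. As a share of the *Trdv1* and *Trdv5* reads of their samples, the leaders held from 0.622% (95% Wilson interval 0.578% to 0.669%, IL-17neg 27-01) to 4.42% (4.31% to 4.53%, IL-17neg 20-01). A count of 0 allows a share of up to 0.00211% to 0.00313%, depending on the sample. Reads are PCR products without described molecular identifiers, so these intervals and limits cover counting error only.

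RRD members were few in 4 samples and many in both samples numbered 27-01. The IL-17neg samples 13-01, 20-01 and 27-01 held 21, 22 and 105 members, and the IL-17pos samples of the same numbers held 15, 43 and 95. All *Trdv1* and *Trdv5* clonotypes followed the same order in the IL-17neg group, at 197, 221 and 699, and in the IL-17pos group, at 166, 276 and 648. Members took 6.46%, 9.76% and 14.6% of *Trdv1* and *Trdv5* reads in IL-17neg 13-01, 20-01 and 27-01. In the IL-17pos samples they took 9.34%, 12.3% and 14.3%. The groups overlapped, at 10.3% ± 4.12 (SD, n = 3) in IL-17neg and 12.0% ± 2.51 (SD, n = 3) in IL-17pos samples. The difference of 1.71 percentage points was smaller than either SD (exact two-sided permutation test, p = 0.7, adjusted p = 0.9). It was below 0, at -0.210, without IL-17neg 13-01. This and 8 further IL-17pos minus IL-17neg comparisons formed a family of 9, adjusted together by the Benjamini-Hochberg method. With 20 possible assignments none could give a p below 0.1.

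As a share of the N-added *Trdd2* clonotypes of a sample, with each clonotype counted once, members made up 13.6%, 12.9% and 18.7% in IL-17neg 13-01, 20-01 and 27-01. The IL-17pos values were 10.9%, 19.1% and 17.8%. The groups again overlapped, with means of 15.1% ± 3.14 and 15.9% ± 4.42 (SD, n = 3 each; exact permutation test of the difference of 0.862, p = 0.9, adjusted p = 0.9). The direction of this difference turned when IL-17neg 20-01 (-0.231), IL-17pos 20-01 (-0.737) or IL-17pos 27-01 (-0.0603) was left out. It was 3.38 without IL-17pos 13-01, 2.66 without IL-17neg 27-01 and 1.41 without traces of clonotypes abundant in another sample.

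Among clonotypes that carried exactly 1 of the frame motifs, RRD was on average the rarest. It accounted for 22.6% ± 5.34 (SD, n = 6) of them, against 46.5% ± 4.52 for GGI and 31.0% ± 2.66 for EGY. By reads the shares were 20.7% ± 6.19 for RRD, 48.5% ± 6.82 for GGI and 30.8% ± 4.76 for EGY. RRD had fewer clonotypes than GGI in all 6 samples and fewer than EGY in 5, with 43 of each in IL-17pos 20-01. Of the N-added clonotypes, 411 had aligned *Trdd2* bases in the RRD phase, and 135 of these showed none of the motifs in the protein. By the same alignment 270 of the 271 members were in the RRD phase. The 9 bases that encode RRD were identical to *Trdd2* in 256 members (94.5%).

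The edge of the rule is a single insertion. Just inside it were 21 members with 1 inserted nucleotide. Just outside were 15 RRD clonotypes without any insertion, which held 30820 reads or 4.46% of the *Trdv1* and *Trdv5* reads. A further 7 clonotypes with RRD and a motif of another frame, with 2576 reads, were also left out. The single-insertion members with the most reads for each V segment were the leading *Trdv5* member of IL-17neg 20-01 shown above and a *Trdv1* member with 697 reads in IL-17neg 27-01 and 0 elsewhere. In the *Trdv1* member the insertion lies between D and J.
*Trdv1*, single insertion: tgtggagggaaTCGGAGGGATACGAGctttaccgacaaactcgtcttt

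Members had more insertions before *Trdd2* than after it, on average in all 6 samples. They had 6.02 ± 5.36 inserted nucleotides between V and D (SD over 271 clonotypes, median 4, highest 22) and 2.08 ± 2.01 between D and J (median 2, highest 9). Both sides were filled in 160 members (59.0%), only the V-D side in 82 (30.3%) and only the D-J side in 29 (10.7%). In total a member carried from 1 to 23 insertions, and 101 members carried 10 or more. Clonotypes are not replicates, so these spreads describe the members and support no test. In 44 members the V-D counts include bases that match *Trdd1*, as given below. By V segment, *Trdv5* members had 7.22 ± 5.63 V-D insertions and *Trdv1* members 4.73 ± 4.76. On the D-J side the values were 2.05 ± 1.86 and 2.12 ± 2.16. *Trdv5* members encoded 18.8 ± 3.14 residues (12 to 24) and *Trdv1* members 17.8 ± 2.16 residues (13 to 24).

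Over all members, G or C made up 394 of 565 D-J bases (69.7%) and 989 of 1631 V-D bases (60.6%). In GGI clonotypes the corresponding values were 67.0% and 63.2%, and in EGY clonotypes 68.2% and 60.4%. The RRD motif limits how far *Trdd2* can be trimmed at either end, so the bases kept are a description of members chosen for that motif. It does not fix the trimming, since RRD was encoded by the bases of *Trdd2* in 256 of 271 members and not in the rest. Germline runs began as late as base 7 and ended as early as base 7. The first base was kept in 174 members (64.2%), the last in 96 (35.4%), and the germline run covered 13.0 ± 2.32 bases, between 7 and 16. All 16 bases were kept by 56 members (20.7%), against 13.6% of GGI and 25.2% of EGY clonotypes. These shares were not tested, since every motif needs other bases. *Trdj1* had lost no base in 85 members (31.4%). The members with all 16 bases that had the most reads for each V segment are shown for comparison with the trimmed joins.
*Trdv1*, whole *Trdd2*: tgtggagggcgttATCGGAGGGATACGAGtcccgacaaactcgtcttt
*Trdv5*, whole *Trdd2*: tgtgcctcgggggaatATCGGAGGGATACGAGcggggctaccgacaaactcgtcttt

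The *Trdv1* member had 664 reads in IL-17pos 20-01 and 0 in the other 5 samples. The *Trdv5* member had 2342 reads in IL-17neg 20-01, 2 in IL-17neg 13-01, 1 in IL-17pos 27-01 and 0 in the remaining samples.

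The residue before RRD was tyrosine in 153 members (56.5%), and no other residue stood there in more than 24. Asp preceded RRD in 24 members, Gly in 20 and His in 14. The tyrosine was encoded by tat in 149 of the 153. The deposited D borders begin before the first matched germline base of *Trdd2* in 159 members. Whether those extra bases are palindromic was not tested. In 141 of the 153 the tyrosine codon lay wholly within the D borders. There the last base in front of *Trdd2* and the first 2 bases of *Trdd2* form the codon. In 7 members it lay within the V border and in 5 it ran across a border or insertion. Tyrosine preceded RRD in 95 of 140 *Trdv5* members (67.9%) and 58 of 131 *Trdv1* members (44.3%). The sample shares among *Trdv5* members were 50%, 64.7% and 74.5% in IL-17neg 13-01, 20-01 and 27-01 and 57.1%, 75% and 64.4% in IL-17pos 13-01, 20-01 and 27-01. For *Trdv1* they were 66.7%, 40.0% and 37.0%, and 50%, 48.1% and 44.4%. *Trdv5* was higher in 5 of 6 samples, all except IL-17neg 13-01. The mean within-sample difference was 16.6 ± 19.0 percentage points (SD, n = 6; exact sign-flip permutation test, p = 0.0938). This comparison and the one on *Trdd1* runs were added after the data had been seen, and over both the adjusted p was 0.188. After RRD stood threonine, the next germline codon, in 213 members (78.6%). Alanine followed in 16, and lysine and proline in 11 each.

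Several long V-D stretches contained bases of *Trdd1*, the other D segment, although the files assign only *Trdd2* to these clonotypes. A run of at least 6 consecutive bases of the *Trdd1* sequence atggcatat, searched in the sense orientation between the V border and the first germline base of *Trdd2*, was present in 44 members (16.2%). Of these 33 had a run of 7 or more bases and 11 had all 9. The same search found 106 of 487 GGI clonotypes (21.8%) and 87 of 349 EGY clonotypes (24.9%). The 4 members with the most reads and at least 8 *Trdd1* bases are shown, with the *Trdd1* run rather than *Trdd2* in capitals.
IL-17neg 20-01, *Trdv1*, 9 bases: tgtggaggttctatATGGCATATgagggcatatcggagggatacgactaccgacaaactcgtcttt
IL-17neg 20-01, *Trdv5*, 9 bases: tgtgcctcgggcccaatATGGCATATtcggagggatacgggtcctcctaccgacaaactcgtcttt
IL-17pos 27-01, *Trdv5*, 8 bases: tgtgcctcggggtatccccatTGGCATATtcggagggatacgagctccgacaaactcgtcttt
IL-17pos 20-01, *Trdv5*, 9 bases: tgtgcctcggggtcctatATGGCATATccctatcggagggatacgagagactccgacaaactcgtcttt

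They had 866, 527, 356 and 306 reads in the samples named. The leading members of IL-17neg 13-01 and IL-17neg 27-01 carried 7 *Trdd1* bases each. For the 44 members with a run the deposited borders count bases that match *Trdd1* as insertions. These members averaged 11.1 V-D insertions, and the 227 members without a run averaged 5.04. Without the 44 members the G or C share of V-D bases was 65.2% (746 of 1144). A run was found in 34 of 140 *Trdv5* members (24.3%) and 10 of 131 *Trdv1* members (7.63%). *Trdv5* had the higher share in 5 of 6 samples, the exception being IL-17neg 20-01 (11.8% against 40.0% in 17 and 5 members). The mean within-sample difference of 14.3 ± 27.9 percentage points did not pass the test (SD, n = 6; exact sign-flip permutation test, p = 0.281, adjusted p = 0.281). It was 5.75 without IL-17pos 13-01 and 22.8 without IL-17neg 20-01. Across samples, 23.8%, 18.2% and 20.0% of members had a run in IL-17neg 13-01, 20-01 and 27-01, and 26.7%, 11.6% and 9.47% in IL-17pos 13-01, 20-01 and 27-01.

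V segment usage of the members varied between samples without separating the IL-17 groups. *Trdv5* accounted for 57.1%, 77.3% and 48.6% of members in IL-17neg 13-01, 20-01 and 27-01. It accounted for 46.7%, 37.2% and 62.1% in IL-17pos 13-01, 20-01 and 27-01. The means were 61.0% ± 14.7 in IL-17neg and 48.7% ± 12.6 in IL-17pos samples (SD, n = 3 each). The difference of -12.3 percentage points was smaller than either SD (exact permutation test, p = 0.4, adjusted p = 0.9). It was -0.749 in the tables of the second read of the pair. Without IL-17neg 20-01 it was -4.20, without IL-17pos 20-01 -6.61, without IL-17pos 27-01 -19.1 and without IL-17neg 27-01 -18.5. By reads, *Trdv5* took 50.9%, 84.2% and 53.9% of member reads in the IL-17neg samples and 26.4%, 39.4% and 65.1% in the IL-17pos samples, in the same order of numbers.

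The V segments of RRD members were also set against those of the other *Trdd2* frames within each sample. The *Trdv5* share of RRD members exceeded that of EGY clonotypes by 17.1, 12.6 and 8.89 percentage points in IL-17neg 13-01, 20-01 and 27-01. In IL-17pos 13-01, 20-01 and 27-01 the differences were 10.6, 0 and 20.0. The mean of 11.5 ± 7.003 percentage points was above 0 in 5 of 6 samples but did not pass the threshold after adjustment (SD, n = 6; exact sign-flip permutation test, p = 0.0625, adjusted p = 0.375 over 9 within-sample comparisons). Without traces of clonotypes abundant in another sample, IL-17neg 20-01 and IL-17pos 20-01 lay below 0, at -6.36 and -4.50. The mean was then 8.08 percentage points, above 0 in 4 of 6 samples (exact sign-flip permutation test, p = 0.156). It was 6.28 by the aligned frame and 5.24 weighted by reads, where IL-17pos 13-01 and 20-01 lay at -8.62 and -16.1 and IL-17neg 20-01 at 39.2. Against GGI the difference was 7.23 ± 13.99 percentage points, above 0 in 4 of 6 samples (exact sign-flip permutation test, p = 0.281, adjusted p = 0.422), and 3.37 without IL-17neg 20-01. It was 0.248 in the second-read tables, 1.07 with at least 10 reads, 1.996 by the aligned frame and -2.56 weighted by reads. Put the other way, RRD was the frame of 25.4% ± 4.97 of *Trdv5* clonotypes with a single motif and of 19.5% ± 7.59 of the *Trdv1* ones (SD, n = 6 samples). *Trdv5* was higher in 5 of 6 samples, all except IL-17pos 20-01, where the values were 26.7% and 31.0%. The mean difference was 5.87 ± 7.18 percentage points (exact sign-flip permutation test, p = 0.125, adjusted p = 0.375). Weighted by reads it was 0.267, and it lay between 2.79 and 2.95 by the aligned frame, in the second-read tables and with at least 10 reads.

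V-D insertions per member averaged 3.43, 5.95 and 5.26 nucleotides in IL-17neg 13-01, 20-01 and 27-01. In IL-17pos 13-01, 20-01 and 27-01 they averaged 5.93, 6.86 and 6.55. The lowest IL-17pos mean lay just below the highest IL-17neg mean, and the groups had 4.88 ± 1.30 and 6.45 ± 0.472 insertions (SD, n = 3 each). The difference of 1.57 nucleotides did not pass the test (exact permutation test, p = 0.2, adjusted p = 0.9). It depended on clonotypes of few reads, since with at least 10 reads per clonotype it was -0.720. Without IL-17neg 13-01, the sample with the fewest insertions, it was 0.841, and without traces of clonotypes abundant in another sample 1.37. D-J insertions averaged 2.14, 2.41 and 1.83 in the IL-17neg samples and 3.27, 2.74 and 1.87 in the IL-17pos samples, in the same order. These groups overlapped as well, with a difference of 0.501 (exact permutation test, p = 0.3, adjusted p = 0.9). It was 0.182 without IL-17pos 13-01 and 0.879 without IL-17pos 27-01.

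CDR3 lengths were compared separately for each V segment. *Trdv1* members averaged 16.4, 18.6 and 17.4 residues in IL-17neg 13-01, 20-01 and 27-01 and 17.9, 18.6 and 17.8 in IL-17pos 13-01, 20-01 and 27-01. *Trdv5* members averaged 18.5, 17.3 and 18.6 residues in the IL-17neg and 18.0, 19.2 and 19.0 in the IL-17pos samples. Neither difference, 0.564 residues for *Trdv1* and 0.595 for *Trdv5*, was larger than the larger SD of its groups (exact permutation tests, p = 0.5 and p = 0.4, adjusted p = 0.9 for both). Leaving out IL-17neg 13-01 lowered the *Trdv1* difference to 0.0380, and leaving out IL-17neg 20-01 raised it to 1.12. The *Trdv5* difference was 0.175 without IL-17neg 20-01 and 0.960 without IL-17pos 13-01. With at least 10 reads per clonotype the differences shrank to 0.00127 and 0.0815 residues. Compared with the other frames of the same samples, RRD members had a mean length difference of -0.439 ± 0.774 residues to GGI clonotypes (SD, n = 6), below 0 in 4 of 6 samples. To EGY clonotypes it was -0.438 ± 0.463 residues (SD, n = 6), below 0 in 5 of 6 samples. Neither passed after adjustment (exact sign-flip permutation tests, p = 0.25 and 0.0938, adjusted p = 0.422 and 0.375). In the IL-17neg samples the length difference averaged -0.910 to GGI and -0.747 to EGY and was below 0 in all 3 samples for both frames. In the IL-17pos samples it averaged 0.0324 to GGI, above 0 in 2 of 3, and -0.130 to EGY, above 0 in 1 of 3. The groups differed by 0.943 and 0.617 residues (exact permutation tests, p = 0.3 and p = 0.1, the smallest possible). Without IL-17neg 13-01 the length differences were -0.263 to GGI and -0.283 to EGY. The insertions did not differ beyond their spread from either frame on the V-D side (-0.382 against GGI and -0.306 against EGY; adjusted p = 0.781 for both) or on the D-J side (0.348 and 0.295; adjusted p = 0.422 and 0.643, exact sign-flip permutation tests). For V-D insertions against both frames the sign turned without IL-17neg 13-01, to 0.243 and 0.268. By the aligned frame the V-D differences were -0.771 (GGI) and -1.01 (EGY), and weighted by reads -1.03 and -1.01. Against GGI they averaged 0.658 in IL-17pos and -1.42 in IL-17neg samples (exact permutation test between the groups, p = 0.2). D-J differences fell to 0.157 against GGI and 0.0840 against EGY without IL-17pos 13-01, and the one against GGI rose to 0.545 without IL-17neg 13-01. By group they averaged 0.755 (IL-17pos) and -0.0581 (IL-17neg) against GGI and 0.654 and -0.0639 against EGY (exact permutation tests between the groups, p = 0.2 and p = 0.4). Without traces the differences to EGY were -0.746 in length, -0.570 in V-D and 0.0548 in D-J insertions (exact sign-flip permutation tests, p = 0.0625, 0.469 and 0.906).

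The spread of reads over the members did not separate the IL-17 groups. Its measure, the inverse Simpson index (how many clonotypes of equal size would be as diverse), was 4.34, 3.63 and 42.7 among members of IL-17neg 13-01, 20-01 and 27-01. It was 5.07, 17.3 and 36.9 in IL-17pos 13-01, 20-01 and 27-01. The leading member held 45.2% of member reads in IL-17neg 20-01 and 4.25% in IL-17neg 27-01. The group means of 16.9 ± 22.3 and 19.8 ± 16.1 (SD, n = 3 each) differed by less than either SD (difference 2.90, exact permutation test, p = 0.8, adjusted p = 0.9). Leaving out IL-17neg 13-01, IL-17neg 20-01 or IL-17pos 27-01 turned the difference to -3.37, -3.73 and -5.69. It was 15.8 without IL-17neg 27-01 and 10.2 without IL-17pos 13-01.

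Members were private to 1 sample with few exceptions. Of the 271, 247 (91.1%) were found in 1 sample, 18 in 2, 6 in 3 and 0 in more than 3. Shared members made up 8.86%, against 12.3% of GGI clonotypes, 8.02% of EGY clonotypes and 11.4% of all *Trdv1* and *Trdv5* clonotypes. In all 24 shared members the highest count was at least 50 times the next, and 23 had at most 4 reads in any sample but the leading one. Of the 24, 21 were found in both IL-17 groups. The largest overlap, 11 members, was between IL-17neg 20-01 and IL-17pos 27-01, and no other pair shared more than 3. A single member reached 10 reads in 2 samples, with 520 reads in IL-17pos 13-01 and 10 in IL-17neg 27-01. It keeps 12 bases of *Trdd2* and has 4 V-D insertions and no D-J insertion.
*Trdv1*, at least 10 reads in 2 samples: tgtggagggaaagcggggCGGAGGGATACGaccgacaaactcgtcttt

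The 4 members picked among those found in 3 samples, by their summed share of reads, were all *Trdv5* clonotypes of 1 abundant sample. They include the leader of IL-17neg 20-01 and the *Trdv5* member with the whole of *Trdd2*, both shown above, and the following pair.
*Trdv5*, Cys before RRD: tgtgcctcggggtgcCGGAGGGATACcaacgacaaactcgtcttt
*Trdv5*, His before RRD: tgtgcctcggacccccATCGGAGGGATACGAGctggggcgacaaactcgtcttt

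The first had 2177 reads in IL-17pos 13-01, 2 in IL-17neg 13-01, 3 in IL-17neg 20-01 and 0 elsewhere. The other had 2164 reads in IL-17neg 20-01, 1 in IL-17pos 13-01, 1 in IL-17pos 27-01 and 0 elsewhere. The share of members found in another sample was 38.1%, 68.2% and 5.71% in IL-17neg 13-01, 20-01 and 27-01, and 33.3%, 13.95% and 14.7% in IL-17pos 13-01, 20-01 and 27-01. The groups overlapped (difference -16.7 percentage points, exact permutation test, p = 0.6, adjusted p = 0.9). With traces left out, including the 10 reads of the member that reached 10 in 2 samples, no member was shared and the difference was 0. The difference was 2.83 among clonotypes of at least 10 reads, where 0%, 0% and 1.52% of IL-17neg members and 10%, 0% and 0% of IL-17pos members were shared. Leaving out 1 sample moved it between -30.3 (IL-17neg 27-01) and -4.58 (IL-17pos 27-01).

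Translated with their V segment, the members gave 256 protein sequences, of which 14 had more than one nucleotide form and 26 occurred in 2 or more samples. With at least 10 reads required, 2 of 168 occurred in 2 or more samples. One was the *Trdv1* member shown above with 520 and 10 reads. The other was a *Trdv1* sequence of 17 residues with different nucleotide forms in each sample, with 488 reads in IL-17pos 20-01 and 61 in IL-17pos 27-01. Other forms stood side by side within a sample. The protein sequence of the leading member of IL-17pos 13-01 had a further form with 204 reads there, beside 2736. A *Trdv1* sequence of 21 residues in IL-17pos 20-01 had forms with 209, 208 and 1 reads. No member differed at 1 base from a clonotype with at least 50 times its reads in the same sample. At smaller ratios such neighbours occurred. The forms of 2736 and 204 reads differ at 1 base, as do those of 209 and 208 reads. So do 2 *Trdv1* forms with 664 and 134 reads in IL-17pos 20-01. Whether such forms are PCR or sequencing variants was not tested, and each counts as a member.

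Restricting the members to at least 10 reads left 177 of 271, of which 91 were *Trdv1* and 86 *Trdv5*. They numbered 8, 7 and 66 in IL-17neg 13-01, 20-01 and 27-01 and 10, 25 and 62 in IL-17pos 13-01, 20-01 and 27-01, and held between 99.5% and 99.9% of the member reads of a sample. Of the 178 member entries with at least 10 reads in a sample, 126 (70.8%) were also present in the second-read table of that sample, against 10 of 123 entries below 10 reads (8.13%). Of the latter, 29 had at least 50 times more reads in another sample. Insertions were on both sides in 101 members (57.1%), on the V-D side only in 57 and on the D-J side only in 19. Mean V-D insertions were 5.90, D-J insertions 2.01 and CDR3 length 18.3 residues. Tyrosine preceded RRD in 100 of 177 (56.5%), 68.6% with *Trdv5* and 45.1% with *Trdv1*, and threonine followed it in 147 (83.1%). A *Trdd1* run was found in 32 (18.1%), 25.6% of the *Trdv5* and 10.99% of the *Trdv1* members. In this set the *Trdv5* share of RRD members exceeded that of EGY clonotypes by 8.65 percentage points (exact sign-flip permutation test, p = 0.0625), and the share of reads differed between IL-17pos and IL-17neg samples by 1.71 percentage points (exact permutation test, p = 0.7).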

How the data were processed

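The δ chain was measured in 3 IL-17pos and 3 IL-17neg samples, grouped by the labels. RACE PCR amplicons were sequenced as read pairs on a MiSeq, and the authors annotated them with MiXCR and wrote VDJtools tables. Version, merging settings and annotation build are not given in the sources used here; the labels name mm10. The deposited counts are reads per clonotype, not normalized, and the deposited fraction is the count over the total of its table. The deposited segment borders (V end, D start, D end, J start) are positions in the CDR3 counted from 0.

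The first-read tables (6 of 12) were used, because no source names the read of the pair. Insertions were the positions between the borders. Bases inside the borders, which can include palindromic ones, were not counted. Germline sequences came from GRCm38.p6 with RefSeq annotation. *Trdd2* runs were aligned over at least 5 bases. Exact two-sided permutation tests compared means over 20 assignments (groups) or 64 sign patterns (within samples, smallest p 0.031). The study names rank tests, which with 3 samples against 3 have the same smallest p of 0.1. Adjustment was by the Benjamini-Hochberg method, over 9 group, 9 within-sample and 2 added comparisons. Wilson intervals are at 95%, and a count of 0 allows 3 reads. Between 95800 and 142163 reads per sample set the precision.

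Members, lists and tests were chosen with earlier results of these data known. The sequences printed follow a rule: the member with most reads in each sample, members with at least 10 reads in 2 samples, the 4 found in most samples, and, for each V segment, those with most reads that keep all of *Trdd2* or have 1 insertion. The *Trdd1* examples were added after seeing the data. Alternatives were the second-read tables, at least 2 or 10 reads, weighting by reads (or, for shares of reads, by clonotypes), the aligned frame, leaving out traces or near copies (50-fold), leaving out each sample, and blocking by sample number (within samples, averaging samples of 1 number first). Insertion counts, frame calls and the search for near copies were checked on simulated clonotypes, and the exact tests on known values. The simulated clonotypes came with their true borders, so the deposited borders were not tested. Python 3.11.15, NumPy 2.4.6, pandas 2.3.3 and SciPy 1.17.1 were used.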

Additional observations from a re-analysis of the deposited data

Results flagged for a closer look

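V-D insertions of RRD members minus those of EGY clonotypes of the same sample differed in sign between the groups. All 3 IL-17pos samples lay above 0 (1.10, 0.302 and 0.986 nucleotides in 13-01, 20-01 and 27-01) and all 3 IL-17neg samples below it (-3.17, -0.340 and -0.711). The IL-17pos minus IL-17neg difference was 2.20 nucleotides, from means of 0.796 and -1.41. Its exact permutation p of 0.1 is the smallest that 3 samples against 3 can give. The pattern did not hold under 5 alternatives. IL-17neg 20-01 lay above 0 with at least 10 reads (1.75), with at least 2 reads (0.318) and in the second-read tables (1.61). IL-17pos samples lay below 0 with the aligned frame (13-01 at -1.62 and 20-01 at -0.375), weighted by reads (13-01 at -1.65 and 27-01 at -0.129) and with at least 2 reads (20-01 at -0.832). The 9 within-sample measures and the 2 added ones (tyrosine before RRD and *Trdd1* runs) were all examined for such a change of sign.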

How the results depend on the processing

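Over 20 results, 239 alternative values came from settings that could move a value. Of these 220 were counted as keeping their direction and their side of the threshold, 17 reversed and 2 passed 0.05 before adjustment. The 220 include the group difference of 0 in members found in another sample without traces, which has no direction. All 24 shared members met the 50-fold rule for traces, so that 0 was fixed by the rule and says nothing about stability. The other 40 equal the reported values by construction and say nothing about stability: no clonotype was a near copy (0 of 2207), and blocking by sample number, or averaging samples of 1 number first, changes the p alone. Group comparisons cannot pass 0.05, so their p-values say nothing about stability. The cause was not tested for any change. The aligned frame reversed the IL-17pos minus IL-17neg share of N-added clonotypes, to -0.335. At least 10 reads reversed the group differences in V-D insertions (-0.720) and in members found in another sample (2.83), and V-D insertions against GGI (0.0331). Weighting by reads reversed the *Trdv5* share against GGI (-2.56). The second-read tables reversed V-D insertions against GGI (0.136) and EGY (0.0877) and D-J insertions against EGY (-0.0168). Weighted by reads, the length difference to EGY was -0.964 (exact sign-flip permutation test, p = 0.031), and with at least 2 reads RRD frame use was 5.29 percentage points higher with *Trdv5* (exact sign-flip permutation test, p = 0.031). Both p are the smallest possible, and over all alternatives these 2 results had exact permutation p up to 0.25 and 0.938. Frame use was 0.267 weighted by reads. Over the settings that kept all samples, the length differences were -0.964 to -0.405 (EGY) and -1.04 to -0.262 (GGI), tyrosine before RRD 8.53 to 17.8 and *Trdd1* runs 7.81 to 17.1 (*Trdv5* minus *Trdv1*). The group differences were 0.361 to 1.71 for the share of reads, -0.335 to 3.17 for the share of N-added clonotypes, -19.4 to -0.749 for the *Trdv5* share, -0.720 to 1.57 for V-D insertions, and 0.00127 to 0.766 (*Trdv1*) and 0.0815 to 0.983 (*Trdv5*) for length.

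Leaving out each sample in turn moved the share of reads between -0.210 and 3.89, the share of N-added clonotypes between -0.737 and 3.38, the inverse Simpson index between -5.69 and 15.8, V-D insertions against GGI between -0.799 and 0.243 and against EGY between -0.587 and 0.268. In the other results no direction turned. No source states whether samples of the same number were paired, and the main tests left them unpaired. Same-numbered samples did not all deviate together over 13 classes of clonotypes (correlations -0.172, -0.399 and 0.284 for 13-01, 20-01 and 27-01). These correlations cannot decide whether the samples were paired. The number of *Trdv1* and *Trdv5* clonotypes rose from 13-01 to 20-01 to 27-01 in both groups. With the replicate block the difference in the share of reads stayed at 1.71 (exact permutation p = 0.5, smallest possible 0.25), and no call changed. At each number the IL-17pos sample had more V-D and more D-J insertions per member, with a blocked exact permutation p of 0.25 for both.

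Shares over all members rest on 15 to 105 members per sample (7 to 66 with at least 10 reads), and shares by V segment on as few as 5 (3 with at least 10 reads). The number of sorted cells is unknown, and counts of 1 or 2 reads made up 26.7% to 63.6% of the members of a sample.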
